A study of Mus musculus with 2 samples.

Results

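The genes of the respiratory chain and the ATP synthase were followed in regulatory T cells (Tregs) sorted from mouse spleen with and without CD25. Members were taken by gene symbol (Nduf with a, b, c, s or v, Sdha to Sdhd, Uqcr, Cox4 to Cox8, Atp5, mt-Nd, mt-Co, mt-Cytb and mt-Atp) and had to reach 5 CPM, unique molecular identifiers (UMIs) per 1000000 of all UMIs summed over cells, in either library. Of 107 rows that match by symbol, 99 passed, out of 9028 genes at or above that minimum and 32285 genes listed. Of these 99 genes, 86 are encoded in the nucleus and 13 in mitochondrial DNA, and both kinds are described apart. The symbol rule also takes in 8 assembly factors of complex I (Ndufaf genes), which are not subunits. At the minimum, the lowest members inside were Ndufaf6 (6.80 CPM in CD25WT and 7.36 in CD25KO) and Ndufaf5 (7.05 and 8.43), and the highest rows outside were Cox7a1 (0.734 and 2.18) and Cox6b2 (1.38 and 1.71).

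The CD25WT library came from mice of genotype CD25WT/WT-tdTomato+/+-Foxp3eGFPCretERT2+/+ and the CD25KO library from CD25FL/FL-tdTomato+/+-Foxp3eGFPCretERT2+/+ mice. Both therefore carry the tdTomato reporter and a tamoxifen-dependent Cre made in Foxp3-expressing cells, and both received tamoxifen at 2 mg/kg by intraperitoneal injection for 5 days. Spleens were harvested 10 days after induction, 2 were pooled per library, and the age of the animals was not given in the sources used here. Cells of both groups were sorted as viable, CD4+, GFP+ and tdTomato+, and CD25KO cells had to be CD25lo as well, a gate applied to 1 group only that can set the mix of cell states. There was 1 library per group, so no difference was tested, and all intervals are 95% intervals for counting error only.

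Barcodes needed 500 or more detected genes and a mitochondrial share of UMIs no higher than 10%. This left 6110 CD25WT cells with 35436738 UMIs (median 5229 per cell) and 6952 CD25KO cells with 35726778 UMIs (median 4150 per cell). Both matrices shared 107 barcodes, of which 26 were kept in both. Il2ra, which encodes CD25, had 125 CPM in CD25WT and 32.4 CPM in CD25KO (log2 ratio -1.95, interval -2.04 to -1.85). The T cell genes Cd3d, Cd3e, Cd3g and Cd4 and the Treg gene Foxp3 were detected in both libraries. Foxp3 was sparse, with a UMI in 15.9% of CD25WT and 9.93% of CD25KO cells. Its level was 34.1 and 21.6 CPM (log2 ratio -0.66, -0.79 to -0.53). Clusters of B cell-like and erythroid-like cells held 1.62% of CD25WT and 1.27% of CD25KO cells. Summed levels of the marker lists were 372 and 632 CPM for B cells, 4309 and 2367 CPM for erythroid cells, 35.6 and 145 CPM for natural killer cells, 133 and 161 CPM for myeloid cells and 11.9 and 13.6 CPM for CD8 T cells. Without the B cell-like and erythroid-like clusters, the median log2 ratios given below were again 0.22 for nuclear and 0.07 for mitochondrially encoded members; the part of natural killer, myeloid and CD8 T cell transcripts was not tested. Ribosomal protein genes made up 39.3% of CD25WT and 31.0% of CD25KO UMIs. The median gene had a log2 ratio of CD25KO over CD25WT of 0.22, so each ratio is read against that median as well as against 0. TMM factors lowered every log2 ratio by 0.22, and under them ratios between 0 and 0.22 change sign.

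The respiratory chain passes electrons from NADH through complex I, or from succinate through complex II, to ubiquinone, then through complex III and cytochrome c to complex IV, where oxygen is reduced. Complexes I, III and IV pump protons out of the mitochondrial matrix, and the ATP synthase uses the returning protons to make ATP. Most subunits are made from nuclear genes and imported, while mitochondrial DNA encodes core subunits of all these complexes except complex II. Tregs are known for relying on oxidative phosphorylation more than conventional effector T cells do.

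Nuclear genes of these complexes are known targets of NRF1, of ETS-family factors such as GABP, of YY1 and of the estrogen-related receptors (ERR). RefSeq promoter windows (GRCm38.p6, 250 bases before to 50 after a gene's start) matched 71 of the 86 nuclear members. Each motif was searched as written on both strands, and in the windows shown no match overlaps another. The palindromic NRF1 word, printed in capitals in the Atp5g2 window below, stood in the windows of 9.86% of matched members. It stood in those of 1.07% of all 27025 genes with a window, whether or not they reached the CPM minimum. The ETS word CCGGAAG was found for 26.8% and 9.93%, the YY1 word AAGATGGCG for 11.3% and 1.64%, and the ERR word TCAAGGTCA for 2.82% and 0.466%. At least 1 of the 4 words was present for 43.7% of matched members and 12.5% of these 27025 genes. Shares among only the genes at the CPM minimum were not counted. A match is a string of letters and not a measured binding site.

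The 5 windows below belong to the complex IV genes with the highest and the lowest ratio, Cox8a and Cox7a2l, and to the 3 genes that encode the same subunit c of the ATP synthase, Atp5g1, Atp5g2 and Atp5g3. Each is shown 5′ to 3′ on the minus strand, with 250 bases before and 30 after the gene's start, in lower case with motif words in capitals. They are chr19:7217587-7217866 for Cox8a, chr17:83514304-83514583 for Cox7a2l, chr11:96075602-96075881 for Atp5g1, chr15:102671018-102671297 for Atp5g2 and chr2:73911297-73911576 for Atp5g3.
Cox8a: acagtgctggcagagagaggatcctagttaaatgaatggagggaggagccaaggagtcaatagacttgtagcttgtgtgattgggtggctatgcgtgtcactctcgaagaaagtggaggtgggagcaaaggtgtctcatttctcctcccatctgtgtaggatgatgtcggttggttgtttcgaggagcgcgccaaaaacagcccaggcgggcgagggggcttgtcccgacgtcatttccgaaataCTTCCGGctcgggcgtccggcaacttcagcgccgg
Cox7a2l: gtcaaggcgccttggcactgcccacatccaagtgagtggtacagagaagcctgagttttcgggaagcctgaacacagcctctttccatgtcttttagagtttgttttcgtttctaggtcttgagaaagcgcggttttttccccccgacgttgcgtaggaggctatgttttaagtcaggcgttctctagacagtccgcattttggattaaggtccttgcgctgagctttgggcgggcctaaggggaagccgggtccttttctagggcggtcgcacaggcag
Atp5g1: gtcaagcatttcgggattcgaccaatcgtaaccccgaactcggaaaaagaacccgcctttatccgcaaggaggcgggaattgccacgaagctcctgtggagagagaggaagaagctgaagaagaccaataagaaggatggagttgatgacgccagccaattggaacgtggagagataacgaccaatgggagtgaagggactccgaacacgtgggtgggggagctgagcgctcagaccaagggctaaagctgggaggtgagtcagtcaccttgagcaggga
Atp5g2: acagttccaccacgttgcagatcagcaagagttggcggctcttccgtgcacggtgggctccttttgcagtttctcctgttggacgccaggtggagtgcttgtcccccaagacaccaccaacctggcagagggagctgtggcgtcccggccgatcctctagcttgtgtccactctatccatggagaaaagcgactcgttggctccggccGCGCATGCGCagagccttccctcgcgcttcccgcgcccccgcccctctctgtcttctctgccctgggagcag
Atp5g3: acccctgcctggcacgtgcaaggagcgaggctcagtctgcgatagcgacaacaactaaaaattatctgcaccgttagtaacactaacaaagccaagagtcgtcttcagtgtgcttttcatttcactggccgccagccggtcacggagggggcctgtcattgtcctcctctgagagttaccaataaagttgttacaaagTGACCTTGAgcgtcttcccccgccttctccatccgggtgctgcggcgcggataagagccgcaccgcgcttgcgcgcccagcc
The Cox8a window holds 2 ETS words, at bases 246 and 283 counted from the 5′ end, the second past the end of the stretch shown. The Atp5g2 window holds the NRF1 word at base 209 and the Atp5g3 window the ERR word at base 199, both read on the strand shown or its complement. None of the 4 words as written was found in the Cox7a2l and Atp5g1 windows.

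Nuclear members together took 2.01% of all UMIs in CD25WT and 2.33% in CD25KO, a summed log2 ratio of 0.21 (0.21 to 0.22) that was -0.01 when the libraries were scaled by TMM or by median-of-ratios factors. Their median log2 ratio was 0.22, the same as the median of all 9028 genes. Of the 86 nuclear members, 81 had a ratio above 0, beside 81.6% of all genes, and 44 stood above and 42 below the all-gene median. The interval of the ratio lay wholly above that median for 27 members and wholly below it for 28, beside 29.9% and 28.3% of all genes. No nuclear or mitochondrial member differed by 1.5-fold or more, where 13.3% of all genes were that much higher and 2.22% that much lower in CD25KO. Genes with few UMIs enter these shares. Of 803 other genes within the middle 50% of the nuclear members' mean CPM, 73 were at least 1.5-fold higher and 16 that much lower. Among the same 803 genes, 321 had intervals wholly above and 307 wholly below the all-gene median. As a share of UMIs from neither ribosomal protein nor mitochondrial genes, the nuclear members made up 3.57% in CD25WT and 3.63% in CD25KO. The set as a whole thus sat where the typical gene sat.

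The 13 mitochondrially encoded members took 4.40% of UMIs in CD25WT and 4.71% in CD25KO, a summed log2 ratio of 0.10 (0.10 to 0.10) that turned to -0.12 under TMM and under median-of-ratios factors and to -0.02 in cells with at most 5% mitochondrial UMIs. Their median was 0.07. All 13 of 13 stood below the all-gene median, each with its whole interval. Intervals lay wholly below it for 28.3% of all genes, and for 975 of the 2491 genes averaging 50 CPM or more. The count of 13 members below the median held under each of the 14 alternative scalings and cell sets tried, but not within each Treg state, as given below. TMM factors, median-of-ratios factors and the total without ribosomal protein and mitochondrial genes shift every gene alike, so they could not change it. There were 2.19 mitochondrially encoded UMIs for each nuclear member UMI in CD25WT and 2.02 in CD25KO. Per cell, the mean was 255 and 242 mitochondrially encoded UMIs and 117 and 120 nuclear member UMIs. The cell filter acts on these same genes, since the 13 members are all the mitochondrial rows the matrices list.

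**Figure D1:**
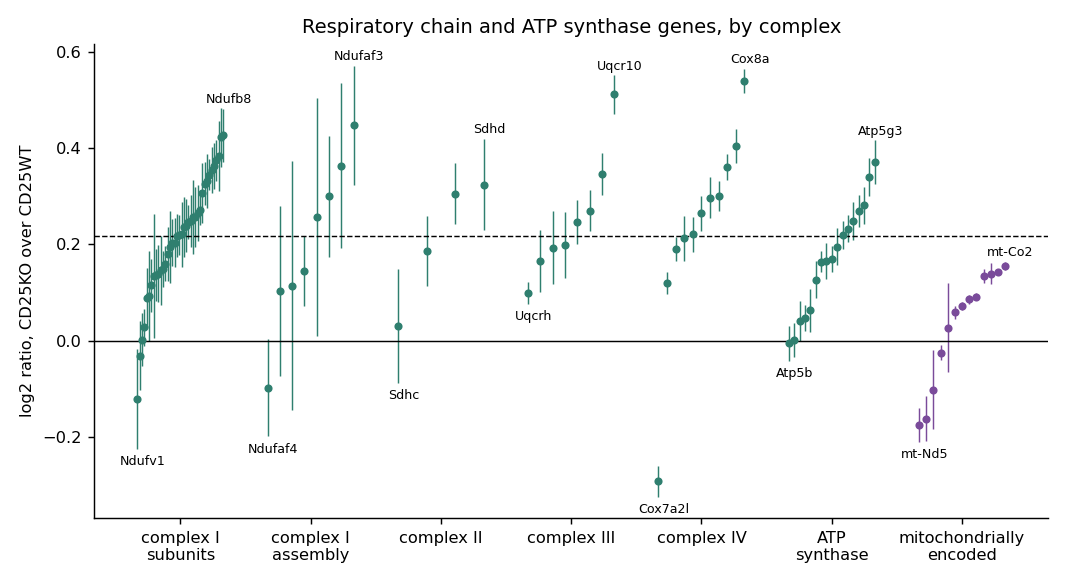
Log2 ratio of CD25KO over CD25WT (vertical axis) for each of the 99 members, grouped by complex and ordered by ratio within it, with 95% counting intervals as bars. The solid line is 0 and the dashed line the median of all genes, 0.22; the highest and lowest gene of each group are named, and all 13 mitochondrially encoded genes lie below the dashed line.

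Complex I takes electrons from NADH, and its 38 nuclear members under that symbol had a median log2 ratio of 0.22 (20 above and 18 below the all-gene median). In its NADH-oxidising N module the median of 8 genes was 0.21, in the ubiquinone-binding Q module 0.14 (8 genes, 2 above the all-gene median) and among 20 accessory subunits of the membrane arm 0.24 (12 above it). Ndufb8, a membrane arm subunit, had 130 CPM in CD25WT and 175 CPM in CD25KO (log2 ratio 0.43, 0.37 to 0.48). Ndufa12 of the N module had 107 and 143 CPM (0.42, 0.36 to 0.48). Ndufv1, the flavoprotein that binds NADH, had 44.3 and 40.7 CPM (-0.12, -0.22 to -0.02). The flavoprotein was thus on the other side of 0 from most of its module, in which 7 of 8 genes had a ratio above 0. Ndufa10 had 88.7 and 86.9 CPM (-0.03, -0.10 to 0.04). Among the most counted were Ndufa4 with 414 and 500 CPM and Ndufa13 with 391 and 496 CPM. Ndufa4 was first described in complex I but is a subunit of complex IV, and Ndufa13 overlaps Yjefn3 on the same strand, so its counts are uncertain.

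Assembly factors of complex I, which build the complex without staying in it, were counted at lower CPM. Their median was 0.20 over 8 genes. Ndufaf3 had 25.9 and 35.3 CPM (0.45, 0.32 to 0.57), Ndufaf7 14.1 and 18.1 CPM (0.36, 0.19 to 0.53), Ndufaf8 81.9 and 90.6 CPM (0.15, 0.07 to 0.22) and Ndufaf1 14.3 and 15.4 CPM (0.10, -0.07 to 0.28). Ndufaf4 had 46.5 and 43.5 CPM (-0.10, -0.20 to 0.00). With few UMIs each, their intervals were the widest of the groups in the plot of ratios by complex.

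Complex II, the succinate dehydrogenase that is also part of the tricarboxylic acid cycle, has no mitochondrially encoded subunit. Its 4 genes had a median of 0.25. The iron-sulfur subunit Sdhb had 101 and 125 CPM (0.31, 0.24 to 0.37) and the membrane anchor Sdhd 45.3 and 56.8 CPM (0.32, 0.23 to 0.42). The flavoprotein Sdha had 80.0 and 91.1 CPM (0.19, 0.11 to 0.26). The other anchor subunit, Sdhc, had 32.8 and 33.5 CPM (0.03, -0.09 to 0.15), so the intervals of the pair of anchors do not overlap.

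Complex III passes electrons from ubiquinol to cytochrome c. Its 8 nuclear genes had a median of 0.22, and all 8 had a ratio above 0. Uqcr10, a small subunit, had 239 CPM in CD25WT and 341 CPM in CD25KO (0.51, 0.47 to 0.55), and its log2 ratio was 0.29 under TMM factors. Uqcrb had 220 and 280 CPM (0.35, 0.30 to 0.39). Uqcrh, the hinge protein, had 842 and 902 CPM (0.10, 0.08 to 0.12) and the core protein Uqcrc2 102 and 114 CPM (0.17, 0.10 to 0.23). Members of this complex thus differed among themselves by more than their counting error.

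Complex IV reduces oxygen. Its 11 nuclear genes had the highest median of the complexes, 0.26, with 7 above the all-gene median, and the genes of highest and lowest ratio in the whole set were both among them. Cox8a had 580 CPM in CD25WT and 843 CPM in CD25KO (0.54, 0.51 to 0.56), with a log2 ratio from 0.14 to 0.63 over the alternatives. Cox5b had 318 and 420 CPM (0.40, 0.37 to 0.44). Cox7c, a small subunit, had 683 and 779 CPM (0.19, 0.17 to 0.22) and Cox4i1, the nuclear subunit that binds ATP, 774 and 841 CPM (0.12, 0.10 to 0.14). Cox7a2l, also known as SCAF1, joins complexes III and IV into a supercomplex. It had 494 CPM in CD25WT and 403 CPM in CD25KO (log2 ratio -0.29, -0.32 to -0.26), and the ratio was 0.02 when the libraries were standardised to the CD25WT state shares.

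Subunits of complex IV exist as isoforms for different tissues, and the libraries held the ubiquitous forms. Cox6a1 (200 and 232 CPM), Cox6b1 (406 and 500 CPM), Cox7a2 (319 and 383 CPM), Cox8a and Cox4i1 were members. The heart, muscle, testis and lung forms among the rows the symbol rule takes, Cox4i2, Cox6a2, Cox6b2, Cox7a1, Cox7b2, Cox8b and Cox8c, stayed below 5 CPM, as did Ndufa4l2. Cox7b2, Cox8b, Cox8c and Ndufa4l2 had 0 UMIs in both libraries, which allows up to 0.0847 CPM in CD25WT and 0.0840 CPM in CD25KO (3 UMIs).

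The ATP synthase had the lowest median of the nuclear groups, 0.17 over 17 genes, with 7 above and 10 below the all-gene median. The catalytic subunit beta, Atp5b, had 352 and 351 CPM (-0.01, -0.04 to 0.03), and the subunit alpha, Atp5a1, 265 and 273 CPM (0.04, 0.00 to 0.08). Atp5mpl, a small membrane subunit, had 382 CPM in both libraries (0.00, -0.03 to 0.04). Atp5k, the subunit e of the membrane part, had 265 and 335 CPM (0.34, 0.30 to 0.38), and Atp5e, the subunit epsilon of the rotor stalk, 909 and 1019 CPM (0.16, 0.14 to 0.19). The main subunits of the catalytic head therefore had ratios near 0, below that of the median gene. The 3 genes for subunit c, which give the same mature protein in the rotor ring, differed in ratio. Atp5g1 had 282 and 308 CPM (0.13, 0.09 to 0.17), Atp5g2 575 and 647 CPM (0.17, 0.14 to 0.20) and Atp5g3 199 and 257 CPM (0.37, 0.33 to 0.42). Only the interval of Atp5g3 lay apart from those of the other two, and under TMM factors Atp5g1 (-0.10) and Atp5g2 (-0.05) had ratios below 0.

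The mitochondrially encoded members are cut from long shared precursor transcripts, and their ratios fell on both sides of 0. The 3 core subunits of complex IV had 7722 and 8119 CPM for mt-Co1 (log2 ratio 0.07, 0.06 to 0.08), 5499 and 6125 CPM for mt-Co2 (0.16, 0.15 to 0.16) and 9447 and 10431 CPM for mt-Co3 (0.14, 0.14 to 0.15). The cytochrome b of complex III, mt-Cytb, had 4983 and 5288 CPM (0.09, 0.08 to 0.10). Each of these ratios was above 0 and below the median gene, and the ratio of mt-Co2 was -0.07 under TMM factors.

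Complex I has 7 mitochondrially encoded subunits, all in its membrane arm. mt-Nd1 had 2085 and 2287 CPM (0.13, 0.12 to 0.15), mt-Nd3 849 and 936 CPM (0.14, 0.12 to 0.16) and mt-Nd4 2467 and 2570 CPM (0.06, 0.05 to 0.07). mt-Nd2 had 1851 and 1819 CPM (-0.02, -0.04 to -0.01). The lowest ratios were those of mt-Nd5, with 402 and 356 CPM (-0.17, -0.21 to -0.14), and mt-Nd4l, with 212 and 190 CPM (-0.16, -0.21 to -0.11). mt-Nd6, the one member on the other strand of mitochondrial DNA, had 52.5 and 53.5 CPM (0.03, -0.07 to 0.12). Of the ATP synthase genes, mt-Atp6 had 8325 and 8868 CPM (0.09, 0.08 to 0.10) and mt-Atp8 69.8 and 65.1 CPM (-0.10, -0.18 to -0.02). mt-Atp8, mt-Atp6 and mt-Co3 overlap in sequence, as do mt-Nd4l and mt-Nd4, so reads may have been split between them. Library tags come from 3′ ends and are not divided by length, so levels of different genes are not compared.

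**Figure D2:**
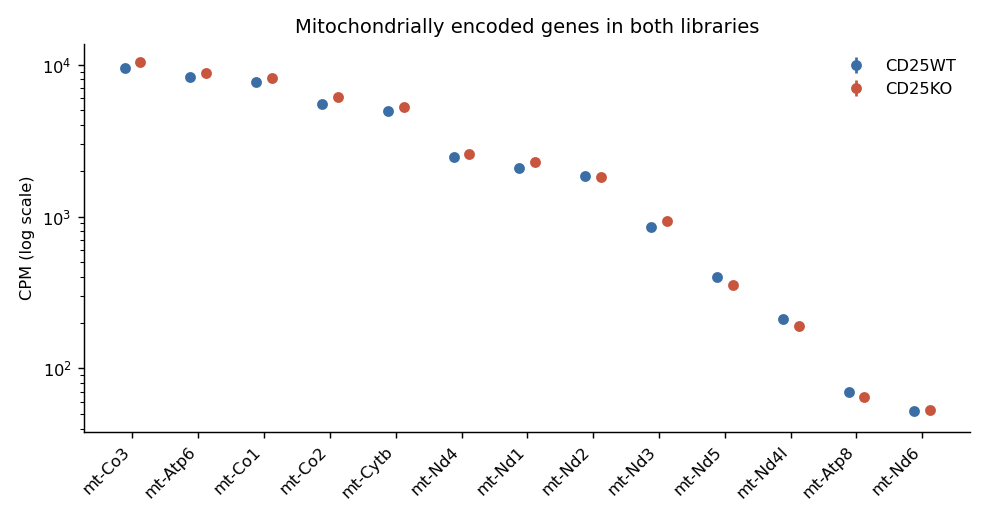
Level of each mitochondrially encoded member in CPM (vertical axis, log scale) in CD25WT (blue) and CD25KO (red), ordered by the CD25WT level, with 95% counting intervals smaller than most points. The 2 libraries differ little beside the spread between genes, and mt-Nd5, mt-Nd4l and mt-Atp8 lie lower in CD25KO.

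Genes that work with the chain were taken from 7 further lists. Electron carriers (8 genes, median 0.22) were led by Etfb of the electron transfer flavoprotein with 80.1 and 115 CPM (0.53, 0.46 to 0.60). Assembly and biogenesis factors of complexes II to V (32 genes, median 0.20, 1 gene at least 1.5-fold higher beside the 13.3% of all genes) were led by Atpif1, the inhibitor of ATP hydrolysis by the ATP synthase, with 116 and 184 CPM (0.67, 0.61 to 0.72). Ttc19, a complex III factor, followed with 23.2 and 34.5 CPM (0.57, 0.44 to 0.70) and Cox17, a copper chaperone, with 199 and 277 CPM (0.48, 0.44 to 0.52). ATP, ADP and phosphate carriers (6 genes) had a median of 0.19, with the ADP/ATP carrier Slc25a4 at 104 and 142 CPM (0.45, 0.39 to 0.51).

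Nuclear regulators of respiratory genes (8 genes at the minimum of 10 listed, median 0.21) held 1 gene at least 1.5-fold higher, the oxygen-responsive factor Hif1a, with 119 and 199 CPM (0.74, 0.68 to 0.79), which is 1 of 8 beside the 13.3% of all genes. Esrra, which encodes an estrogen-related receptor, had 13.9 and 18.5 CPM (0.41, 0.24 to 0.58), and Gabpb1, a GABP subunit, 20.5 and 27.3 CPM (0.41, 0.27 to 0.55). Pprc1, a coactivator of the PGC-1 family, had 8.52 and 6.83 CPM (-0.32, -0.57 to -0.07). Genes that copy and transcribe mitochondrial DNA (12 genes) had a median of 0.07, with 9 of 12 below the all-gene median. Among them Slirp, an RNA-binding protein, had 59.5 and 76.7 CPM (0.37, 0.28 to 0.45) and the polymerase subunit Polg2 9.99 and 8.40 CPM (-0.25, -0.48 to -0.02). The tricarboxylic acid cycle list (16 genes, median 0.15) ranged from Pdha1, a subunit of pyruvate dehydrogenase, at 72.9 and 60.9 CPM (-0.26, -0.34 to -0.18) to Idh3a, an isocitrate dehydrogenase subunit, at 29.3 and 42.2 CPM (0.53, 0.41 to 0.64). Mitochondrial ribosomal proteins (78 genes) had a median of 0.19 and 1 gene at least 1.5-fold higher, Mrps6, with 66.9 and 101 CPM (0.59, 0.52 to 0.67), which is 1 of 78 beside the 13.3% of all genes.

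Treg states were taken from clusters made without the member genes and named from marker genes. Central-like cells (led by Ly6c1 and Igfbp4) numbered 2014 in CD25WT and 361 in CD25KO, effector-like cells (Ccl5, Klrg1, Prdm1, S100a4) 303 and 2006, and follicular regulatory-like cells (Sostdc1, Tox2, Bcl6, Cxcr5) 242 and 719. Recently stimulated-like cells (Egr2, Egr3, Irf4, Nr4a1) numbered 414 and 935, interferon-response-like cells (Ifit1, Ifit3, Isg15) 393 and 399 and cycling-like cells (Mki67, Top2a, Birc5) 80 and 223. Unnamed clusters made up 42.0% of the CD25WT and 31.9% of the CD25KO cells. Recently stimulated-like cells joined clusters 3 and 13, and number 13 held 63 of the 414 CD25WT cells and 24 of the 935 CD25KO cells. Effector-like cells joined 2 clusters, of which number 6 held 171 of the 303 CD25WT cells and number 4 held 1130 of the 2006 CD25KO cells.

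In the 6 named states, nuclear members spanned a wider range of shares over states than between libraries within any state. They took the lowest share of UMIs in central-like cells (1.83% in CD25WT and 1.91% in CD25KO) and in interferon-response-like cells (1.86% and 1.88%). Shares were higher in follicular regulatory-like (2.34% and 2.39%), recently stimulated-like (2.37% and 2.38%) and effector-like cells (2.40% and 2.44%). Cycling-like cells had the highest, 2.92% and 3.15%. Intervals of the 3 states in the middle group lay above those of central-like cells in both libraries. Ribosomal protein genes took 44.6% and 42.5% of UMIs in central-like, 31.8% and 27.5% in cycling-like and 29.7% and 27.4% in effector-like cells. Against UMIs from neither ribosomal protein nor mitochondrial genes, the nuclear share was 3.57% in both libraries in central-like cells, 3.64% and 3.59% in effector-like cells and 3.45% and 3.53% in follicular regulatory-like cells, 3.42% and 3.26% in interferon-response-like cells and 3.85% and 3.68% in recently stimulated-like cells. Cycling-like cells were higher than these 5 states on that scale too, at 4.54% and 4.59%.

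Mitochondrially encoded members were ordered otherwise. Follicular regulatory-like cells had the highest share, 6.0% of UMIs in CD25WT and 5.88% in CD25KO, followed by unnamed cluster 1 with 5.12% and 5.26%. Of the 6 named states, cycling-like cells had the lowest, 3.86% and 3.84%. All 13 mitochondrially encoded genes had their highest level in follicular regulatory-like cells among the 7 states with at least 100 cells in both libraries, as did 27 of the 86 nuclear members and 39.3% of all genes. Set against UMIs from neither ribosomal protein nor mitochondrial genes, mitochondrially encoded UMIs amounted to 8.87% and 8.86% in unnamed cluster 1, 8.85% and 8.68% in follicular regulatory-like, 8.14% and 7.56% in central-like, 6.86% and 6.54% in effector-like and 6.01% and 5.59% in cycling-like cells. On that total 6 of the 13 genes were highest in follicular regulatory-like cells, 6 in unnamed cluster 1 and 1 in central-like cells, so the place of follicular regulatory-like cells depends on the total used. For each nuclear member UMI there were 2.56 and 2.46 mitochondrially encoded UMIs in follicular regulatory-like cells and 1.32 and 1.22 in cycling-like cells. Of the follicular regulatory-like cells kept, 22.3% in CD25WT and 20.0% in CD25KO had a mitochondrial share of 7.5% to 10%, beside 3.04% and 6.36% of all kept cells. Barcodes above the limit of 10% were not assigned to states.

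**Figure D3:**
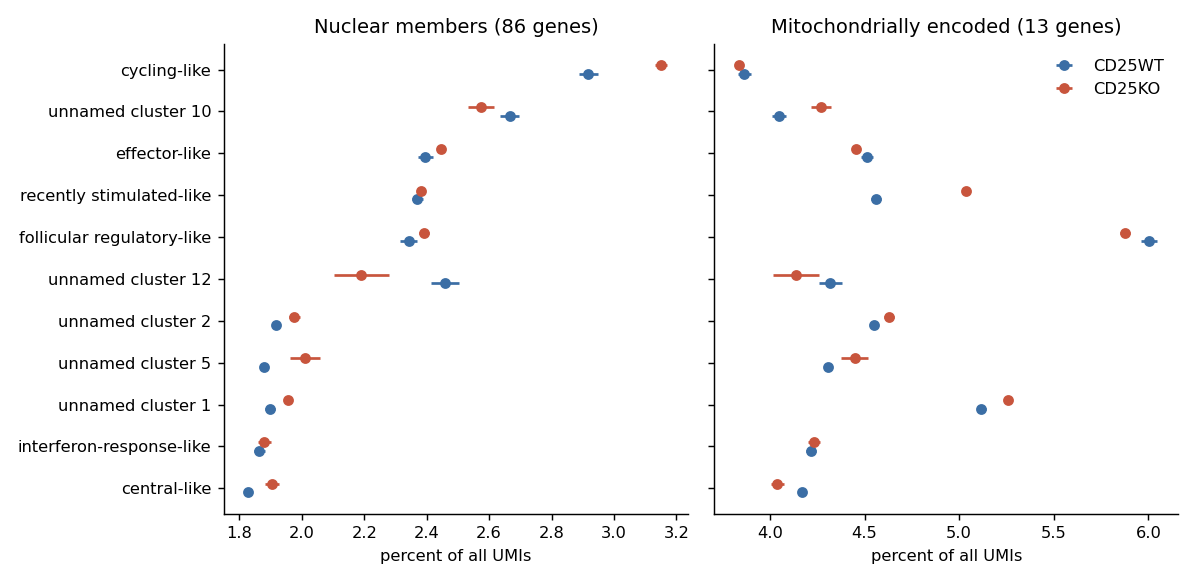
Percent of all UMIs (horizontal axes) from the 86 nuclear members (left) and the 13 mitochondrially encoded members (right) in each T cell state or unnamed cluster (rows), for CD25WT (blue) and CD25KO (red), with 95% counting intervals. Of the named states, cycling-like cells have the highest nuclear share and the lowest mitochondrial share, and follicular regulatory-like cells have the highest mitochondrial share; the horizontal axes do not start at 0.

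Within states the libraries were close. The median log2 ratio of nuclear members was 0.06 in central-like, 0.03 in effector-like, 0.04 in follicular regulatory-like, 0.02 in interferon-response-like and 0.01 in recently stimulated-like cells, and 0.04 in unnamed clusters 1 and 2. The all-gene median of the same state was 0.10, 0.05, 0.01, 0.14 and 0.09 in these named states in that order and 0.05 and 0.07 in the unnamed clusters. Above it stood 36, 31, 51, 18 and 23 of the 86 nuclear members in the named states and 40 and 32 in the unnamed clusters. In the follicular regulatory-like state most members thus stood above the median gene, and in the other 6 most stood below it. With the total limited to UMIs from neither ribosomal protein nor mitochondrial genes, the median was 0.00, -0.02, 0.04, -0.07 and -0.06 in the 5 named states. Over these 7 states, 9 nuclear members had a ratio above 0 in every one, 3 a ratio below 0 in every one and 74 had both signs. The share of all genes with the same sign in all 7 was not counted, and the all-gene median was above 0 in each. The 3 were Ndufv1 (-0.38 to -0.10), Atp5a1 (-0.42 to -0.04) and Atp5b (-0.31 to -0.09). They include both main subunits of the ATP synthase head. Their intervals lay wholly below 0 in 2, 6 and 4 of the 7 states, in that order. The 9 were Atp5g3, Cox6c, Cox8a, Ndufa13, Ndufa6, Ndufaf5, Ndufb1-ps, Ndufv3 and Uqcrh, and the ratio of Cox8a lay between 0.05 and 0.23. For Atp5g3 and Ndufaf5 no state had an interval wholly above 0, and Cox8a had the most such states, 5.

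Standardised to the CD25WT state shares, the median nuclear log2 ratio was 0.05 and the summed one 0.05, beside an all-gene median of 0.08. The ratio of Cox8a was then 0.14 and that of Uqcr10 0.07, where Ndufv1 stood at -0.31. Summed mitochondrially encoded members had a log2 ratio of -0.04 in central-like, -0.02 in effector-like, -0.03 in follicular regulatory-like and 0.14 in recently stimulated-like cells. Within the latter it was 0.12 (0.11 to 0.13) in cluster 3 and -0.16 (-0.20 to -0.11) in the small cluster 13. Above the all-gene median of the state stood 9 of 13 mitochondrially encoded members in recently stimulated-like cells, 5 in unnamed cluster 1 and 3 in unnamed cluster 2. The count was 2 in follicular regulatory-like, 1 in effector-like and 0 in central-like and in interferon-response-like cells. mt-Nd4l, mt-Nd5 and mt-Atp8 had ratios below 0 in each of the 7 states, with intervals wholly below 0 in 2, 6 and 1 of them.

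Cox8a and Cox7a2l were patterned in opposite ways over states. Cox8a had 486 CPM in CD25WT and 503 CPM in CD25KO central-like cells, 816 and 938 CPM in effector-like cells, 731 and 829 CPM in recently stimulated-like cells and 910 and 1009 CPM in follicular regulatory-like cells. Cox7a2l had 596 and 604 CPM in central-like cells, 412 and 401 CPM in effector-like cells, 339 and 341 CPM in follicular regulatory-like cells and 327 and 312 CPM in recently stimulated-like cells. In each of these 4 states the libraries differed less than central-like cells differed from the other states given. Between those other states, some differences were smaller than those between libraries. Among the 7 states with at least 100 cells in both libraries, 3 of the 86 nuclear members were highest in central-like cells. These were Cox7a2l, Atp5mpl and Ndufa6, beside 4.35% of all genes. Against UMIs from neither ribosomal protein nor mitochondrial genes, 14 members were highest there, beside 12.2% of all genes. On the total of all UMIs 35 members had their lowest level there, and the share of all genes that did was not counted.

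The 3 subunit c genes also differed over states. Atp5g1 had 496 and 452 CPM in recently stimulated-like cells, 336 and 322 CPM in follicular regulatory-like cells, 271 and 263 CPM in effector-like cells and 228 and 212 CPM in central-like cells. Its range over the 7 states with at least 100 cells in both libraries, 1.11 on the log2 scale, was the second largest of the set after Ndufaf6 (1.22), a gene with as few as 7 UMIs in a state. Atp5g3 had 265 and 267 CPM in recently stimulated-like, 273 and 273 CPM in follicular regulatory-like, 256 and 275 CPM in effector-like and 167 and 180 CPM in central-like cells. Among these 7 states Atp5g2 varied less (range 0.41), between 504 CPM in CD25WT cells of unnamed cluster 2 and 721 CPM in CD25KO cells of unnamed cluster 1. Cycling-like cells, which are outside these ranges, had 442 and 405 CPM of Atp5g1, 859 and 817 CPM of Atp5g2 and 385 and 417 CPM of Atp5g3. All 3 genes were thus higher in cycling-like than in central-like cells, and Atp5g2 and Atp5g3 were higher there than in any of the 7 states. The assembly factors Ndufaf4 (range 1.08), Ndufaf7 (1.04) and Ndufaf1 (0.99) and the subunit Uqcr10 (0.99) completed the 6 genes of largest range.

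**Figure D4:**
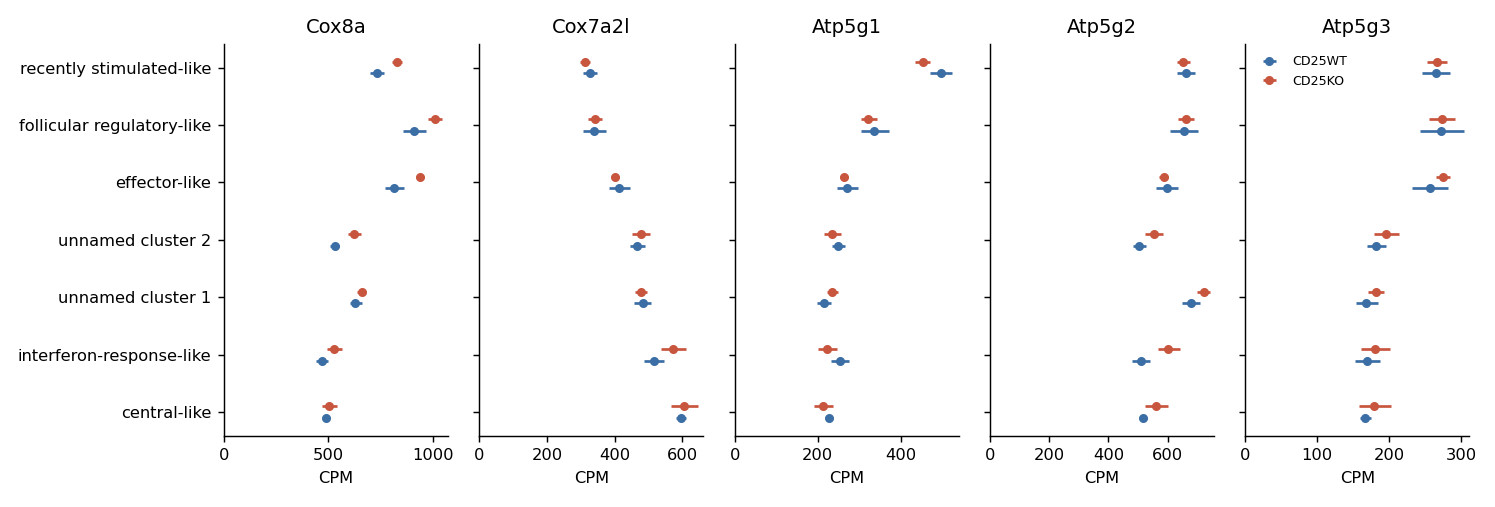
Level in CPM (horizontal axes, from 0) of Cox8a, Cox7a2l, Atp5g1, Atp5g2 and Atp5g3 in 7 Treg states (rows), in CD25WT (blue) and CD25KO (red), with 95% counting intervals. Cox8a is lowest and Cox7a2l highest in central-like cells, and Atp5g1 is highest in recently stimulated-like cells in both libraries.

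Among the 4 states compared with central-like cells, the nuclear members stood furthest from them in cycling-like cells, in each library. The median nuclear member was 0.77 higher on the log2 scale in CD25WT and 0.78 higher in CD25KO, where the median gene was 0.25 and 0.16 higher. At least 1.5-fold higher were 56 of 86 nuclear members in CD25WT, beside 33.9% of all genes, and 59 of 86 in CD25KO, beside 33.3% of all genes, with 52 members in both. Mitochondrially encoded members had medians of -0.11 and -0.07, and 1 of 13 stood above the all-gene median in each library. The cells compared differ in depth, with a median of 16046 and 14407 UMIs in cycling-like and 5186 and 4077 UMIs in central-like cells. With each cell thinned to 2000 UMIs, the nuclear medians were 0.70 and 0.77 beside all-gene medians of 0.36 and 0.19. Without ribosomal protein and mitochondrial genes in the total they were 0.45 and 0.42 beside -0.08 and -0.20.

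Of the 86 nuclear members, 79 stood above and 3 below central-like cells in both libraries, and 4 (Ndufaf4, Ndufaf5, Ndufaf8 and Ndufb4) had opposite signs. The shares of all genes with these signs were not counted. Above the all-gene medians of 0.25 and 0.16 stood 75 nuclear members in CD25WT and 77 in CD25KO. The size was not always alike, as in the assembly factor Ndufaf2 (1.92 in CD25WT and 0.78 in CD25KO) and in Sdhd (1.11 and 1.78). Members given next were chosen after their values were seen. Uqcr10 had 192 CPM in central-like and 531 CPM in cycling-like cells of CD25WT (1.46, 1.34 to 1.59) and 184 and 555 CPM in CD25KO (1.60, 1.42 to 1.78). Cox5a, a complex IV subunit, had 190 and 500 CPM (1.39, 1.26 to 1.52) and 195 and 532 CPM (1.44, 1.27 to 1.63). Cox7a2l had 596 and 306 CPM (-0.96, -1.11 to -0.81) and 604 and 277 CPM (-1.13, -1.26 to -0.99). Cox7a2l, Ndufa6 and Uqcrh were the 3 that stood below. Of the 13 mitochondrially encoded genes, 4 stood above and 6 below in both libraries. Among the 6, mt-Nd2 had 1874 and 1357 CPM in CD25WT (-0.47, -0.54 to -0.39) and 1884 and 1294 CPM in CD25KO (-0.54, -0.61 to -0.47).

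Against central-like cells, nuclear members of the other states were nearer the typical gene. Effector-like cells had nuclear medians of 0.44 and 0.39 beside all-gene medians of 0.38 and 0.32. At least 1.5-fold higher there were 23 of 86 members in CD25WT, beside 33.7% of all genes, and 19 in CD25KO, beside 32.3%. Recently stimulated-like cells had nuclear medians of 0.43 and 0.40 beside 0.35 and 0.35, with 31 members (beside 33.3%) and 25 members (beside 35.9%) at least 1.5-fold higher. Follicular regulatory-like cells had 0.43 and 0.44 beside 0.56 and 0.44, with 26 of 86 members at least 1.5-fold higher in CD25WT beside 47.9% of all genes, and 24 in CD25KO beside 40.6%. Their mitochondrially encoded members had medians of 0.51 and 0.50. All 13 were above central-like cells in both libraries, as were 81.8% and 79.5% of all genes, and 5 of 13 in CD25WT and 8 of 13 in CD25KO stood above the all-gene median. In effector-like cells those medians were 0.02 and 0.04, below the all-gene median for 13 of 13 genes in CD25WT and 12 of 13 in CD25KO. Pooled over cells, a difference between states cannot separate more cells with a transcript from more transcript per cell.

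**Figure D5:**
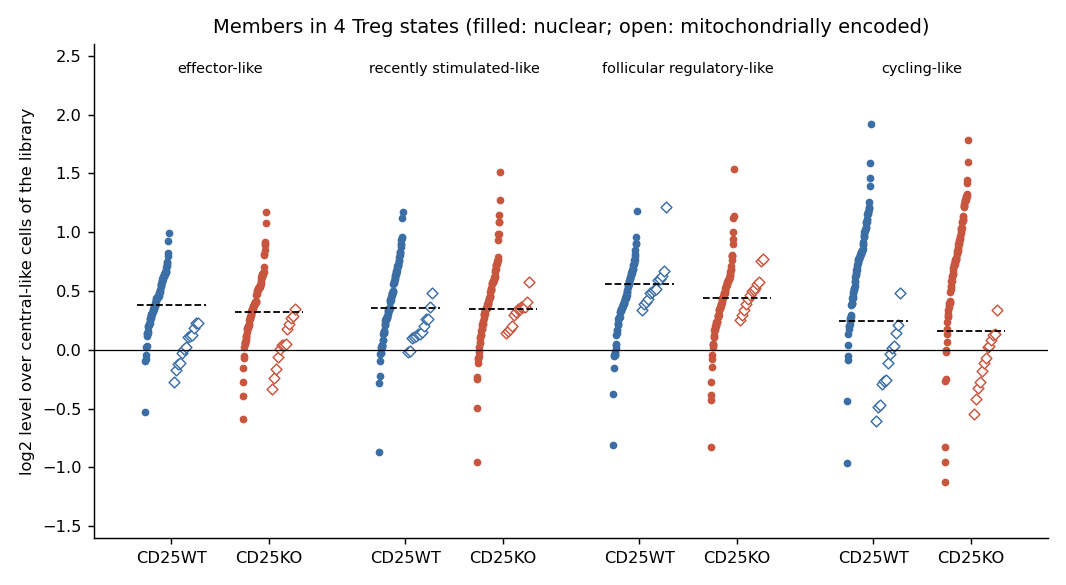
Log2 level of each member over central-like cells of the same library (vertical axis) in 4 Treg states, for 86 nuclear members (filled circles) and 13 mitochondrially encoded members (open diamonds) in CD25WT (blue) and CD25KO (red), with members in order of value. Dashed lines mark the median of all genes; in cycling-like cells most nuclear members lie above it and 12 of 13 mitochondrially encoded members below it in each library.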

How the data were processed

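Per the labels' protocols, sorted splenic Tregs were made into 10x Chromium 3′ libraries, 1 per group from 2 pooled spleens. The authors deposited raw UMI counts, made with cellranger 6.0.0 per the file headers. The submitters' processing notes name the mm10 build, and the gene annotation behind the counts was not given in the sources used here. Members and lists were chosen with earlier results of these data known.

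UMIs were summed over cells with at least 500 genes and at most 10% mitochondrial UMIs (510 and 578 barcodes, 7.70% and 7.68%, failed), and scaled to CPM. Kept depth was 35436738 UMIs in CD25WT and 35726778 in CD25KO. Sums have exact Poisson intervals and ratios exact conditional ones, at 95%. In sums simulated as Poisson counts for 9028 genes with 200 changed, 95.5% of the intervals held the true ratio. This checks the calculation only, since spread between cells or animals was not simulated. Scrublet called 0 and 1 doublets, which was taken as a failure, so doublets remain in the main values.

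Both libraries were clustered with Scanpy 1.11.5 (2000 variable genes, 30 components, 15 neighbours, Leiden resolution 1), leaving out member, ribosomal protein, mitochondrial, receptor segment, haemoglobin, Il2ra, Xist and Y-linked genes. A cluster was named where at least 2 markers of 1 class, and of no other class, stood among its 10 leading genes by fold and at least 3 were detected, a rule set after seeing the data. Differences from the study may come from these rebuilt names. Ratios by state use states with at least 100 cells in both libraries.

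Named with values were all mitochondrially encoded members. In each nuclear group, the 2 genes of highest mean CPM and the 2 of highest and 2 of lowest ratio were named, and so were tissue isoforms, the 6 genes of largest range between states and up to 4 genes of each other list. Genes named in comparisons with central-like cells, or for their sign in every state, were chosen after their values were seen. Over the last 300 bases of their transcripts, 16 members had a match of at least 90 bases and 98% identity in another annotated gene, none of them in another counted gene.

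Alternatives were TMM (edgeR 4.0.16) and median-of-ratios factors, other totals, weights, depths, cell filters and resolutions. Those for cycling-like over central-like cells were chosen after seeing the data.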

Additional observations from a re-analysis of the deposited data

Results flagged for a closer look

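The summed log2 ratio of the mitochondrially encoded members had opposite signs in different Treg states, with intervals that left out 0. It was -0.04 in central-like, -0.02 in effector-like and -0.03 in follicular regulatory-like cells, and 0.14 in recently stimulated-like cells, 0.04 in unnamed cluster 1 and 0.03 in unnamed cluster 2. The all-gene median of the same state was 0.10, 0.05, 0.01, 0.09, 0.05 and 0.07, in that order. Of these states, the summed ratio lay above that median in recently stimulated-like cells only. The difference between states was not tested, since there is 1 library per group. In recently stimulated-like cells, the mitochondrial share was 4.56% of UMIs in CD25WT and 5.03% in CD25KO, beside nuclear member shares of 2.37% and 2.38%, so the larger mitochondrial share came with an alike nuclear one. This state joins clusters 3 and 13, and cluster 13 held 63 of the 414 CD25WT cells and 24 of the 935 CD25KO cells. The ratio was 0.12 (0.11 to 0.13) in cluster 3 alone and -0.16 (-0.20 to -0.11) in cluster 13. Over both clusters 9 of 13 mitochondrially encoded genes had a ratio above 0.

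Isoforms below the CPM minimum were nonetheless counted above the 3 UMIs that a count of 0 allows. Cox6a2, the heart and muscle form, had 45 UMIs in CD25WT, but in 3 cells only, with 38 in a single cell and 2 of the cells in the B cell-like cluster. Cox6b2, the testis form, had 49 UMIs in 37 CD25WT cells and 61 UMIs in 56 CD25KO cells. Cox7a1, another heart and muscle form, had 26 UMIs in 24 CD25WT cells and 78 UMIs in 68 CD25KO cells, and the state with most of these cells was the cycling-like one (7 and 19 cells). Cells with Cox7a1 had a median of 9274 and 9322 UMIs, above the medians of 5229 and 4150 over all kept cells; the part of depth in this was not tested.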

How the results depend on the processing

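The median log2 ratio of nuclear members (0.22) was -0.0050 with TMM factors, -0.0033 with median-of-ratios factors, 0.028 without ribosomal protein and mitochondrial genes in the total, 0.14 with equal weight per cell, 0.16 with cells thinned to 2000 UMIs, 0.29 in cells with a Foxp3 UMI and 0.048 when standardised to CD25WT state shares. Under the first 3 the median of all genes moved by the same amount. Taken against that median (0.00), it was -0.085 with equal weight and -0.059 thinned. The summed nuclear ratio (0.21) was, in that order of settings, -0.011, -0.0095, 0.022, 0.13, 0.15, 0.30 and 0.048, and 0.25 with at most 5% mitochondrial UMIs, 0.22 with at least 1000 genes, 0.19 with CD25WT cells lacking an Il2ra UMI and 0.18 without cycling-like cells.

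The median of mitochondrially encoded members (0.07) was -0.15 with TMM and with median-of-ratios factors, -0.12 without ribosomal protein and mitochondrial genes in the total, 0.10 with equal weight, 0.14 thinned, -0.037 with at most 5% mitochondrial UMIs, 0.050 with CD25WT cells lacking an Il2ra UMI, 0.022 in cells with a Foxp3 UMI, 0.10 without cycling-like cells and 0.022 standardised. Against the all-gene median (-0.15) it was -0.13 with equal weight, -0.080 thinned, -0.26 with at most 5% mitochondrial UMIs, -0.24 in cells with a Foxp3 UMI, -0.12 without cycling-like cells and -0.054 standardised. Their summed ratio (0.10) was -0.12 with TMM and with median-of-ratios factors, -0.091 without ribosomal protein and mitochondrial genes in the total, 0.12 with equal weight, 0.14 thinned, -0.020 with at most 5% and 0.10 with no limit on mitochondrial UMIs, 0.10 with at least 1000 genes, 0.079 with CD25WT cells lacking an Il2ra UMI, 0.044 in cells with a Foxp3 UMI, 0.10 without cells of highest doublet score, 0.12 without cycling-like cells and 0.0095 standardised. The count of members at least 1.5-fold apart (0) was 1 thinned (Ndufaf5), 7 in cells with a Foxp3 UMI (Atp5k, Cox8a, Ndufa1, Ndufa12, Ndufaf3, Ndufb8, Uqcr10) and 3 with no CPM minimum. The share of all genes that far apart was not counted under these settings. Cells with a Foxp3 UMI numbered 971 in CD25WT and 690 in CD25KO. Rows added without the CPM minimum had at most 78 UMIs in a library.

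Between states, the log2 range of the nuclear share (0.38) was 0.60 at resolution 0.5, 0.64 at 1.5, 0.21 without ribosomal protein and mitochondrial genes in the total and 0.32 thinned. That of the mitochondrial share (0.53) was 0.48 at resolution 0.5 and 0.40 on that total. Cycling-like over central-like nuclear medians (0.77 in CD25WT, 0.78 in CD25KO) were 0.45 and 0.42 on that total. The mitochondrial ones (-0.11 and -0.07) were -0.44 and -0.43 there, and -0.15 in CD25KO when thinned. Of 76 single genes named, 40 had the other sign under at least 1 alternative, 26 of them under TMM factors. Beyond the effect of each scaling on all genes, the cause of these changes was not tested. Resolutions 0.5 and 1.5 did not give each state, and those have no value there. Ranges between states at these resolutions also cover other sets of cells than the main ranges. The main ranges leave out cycling-like cells, of which CD25WT had 80. At resolution 0.5 the highest nuclear share was that of an unnamed cluster whose leading genes included Hba-a1, Hbb-bs, Hist1h1b, Pclaf and Birc5. No paired analysis was possible because each group has 1 library. Depth limits the assembly factors most, with as few as 7 UMIs of Ndufaf6 in a state.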

Other observations

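Barcodes above the limit on mitochondrial UMIs, which enter no comparison, numbered 280 in CD25WT and 350 in CD25KO. Mitochondrially encoded members took 18.9% and 19.0% of their UMIs and nuclear members 0.981% and 1.08%. As a share of their UMIs that are not mitochondrial, nuclear members made up 1.21% and 1.33%, beside 2.10% and 2.45% in kept cells. These barcodes had a median of 1208 and 1038 UMIs.

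The Eomes-led unnamed cluster 10 (121 CD25WT and 80 CD25KO cells) had the second highest nuclear share after cycling-like cells, 2.67% and 2.58% of UMIs. Its median depth was 7501 and 6137 UMIs per cell. Against UMIs from neither ribosomal protein nor mitochondrial genes, its nuclear share was 4.85% and 4.58%, beside 4.54% and 4.59% in cycling-like cells. Its leading genes also included Myb, Srm and Mettl1. None of the Treg state markers stood among its 10 leading genes, but Eomes is on the list of natural killer cell markers.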
